A study of Homo sapiens with 19 samples.

Results

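Cholesterol and fatty acid synthesis is followed here through 28 genes, taken by symbol from the deposited count table. They are 7 enzymes of the mevalonate pathway, 9 enzymes of the sterol branch, 4 regulators of the SREBP transcription factors, 5 genes of fatty acid synthesis and 3 of sterol transport. All 28 were found among the 23367 genes of the table, and all 28 were among the 14793 genes that passed the filter on low counts. RNA was sequenced from SHEP TET21N, a human neuroblastoma cell line that carries a MYCN transgene under control of doxycycline. MYCN-high cells were grown without doxycycline and MYCN-low cells with it, so the antibiotic and the MYCN state cannot be told apart in any comparison. Each state was sampled untreated, after 72 h in doxorubicin at 0.1 µg/ml, and 3, 8 and 14 days after the drug was washed out. Doxorubicin is a DNA-damaging anthracycline. The 10 groups held 19 libraries, 2 each except for MYCN-low cells at day 14, which had replicate B alone. The later times had no untreated cells of the same age in culture, so time and drug cannot be told apart either. All libraries come from a single cell line, and p-values measure the spread between its duplicate libraries, labelled biological.

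Cells build cholesterol from acetyl-CoA through mevalonate, farnesyl diphosphate, squalene and lanosterol. The SREBP factors, encoded by SREBF1 and SREBF2, switch on most of these enzymes when sterols in the endoplasmic reticulum run low: SCAP escorts them to the Golgi for cleavage, and INSIG1 holds the complex back when sterols are plentiful. SREBP also drives fatty acid synthesis, while sterol surplus acts through the LXR receptors to raise efflux pumps such as ABCA1. Dividing cells need both products for new membrane.

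Total gene counts ran from 16530112 to 27638012 per library. Levels are given as CPM values, counts relative to the TMM-scaled library total, and they are not corrected for gene length, so levels of different genes are not compared. The ± beside a log2 fold change stands for its approximate standard error, which is the fold change's size over the square root of F in edgeR's quasi-likelihood test, and a gene is called at a Benjamini-Hochberg adjusted p under 0.05. MYCN itself was at 675 and 690 CPM in untreated MYCN-high cells, against 30.7 and 19.1 CPM in untreated MYCN-low cells, and stayed higher in MYCN-high cells at every time, by log2 differences of 4.75 to 5.64. Replicates B and C of MYCN-high cells at 72 h were unlike. They had MYCN at 633 and 1416 CPM, and the proliferation marker MKI67 at 14.4 and 74.7 CPM. The mesenchymal markers VIM, FN1, CD44 and PRRX1 were expressed in all libraries, while of the adrenergic markers of neuroblastoma TH and DBH were at 0.0975 CPM or less, although HAND2 was at 46.0 to 325 CPM. The 3 hepatocyte and 3 adipocyte markers, cell types rich in these pathways, were at 0.316 CPM or less in every library. Fold changes are relative to the bulk of genes. With scaling to the ERCC spike-in RNAs instead, the median log2 value of all tested genes ran from -1.44 to 2.51, depending on the comparison. With TMM scaling it ran from -0.05 to 0.05. The spike-in share differed up to 16.5-fold between replicates of a group.

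In MYCN-high cells, transcripts of mevalonate and sterol enzymes fell during doxorubicin and were still lower 3 days after washout. Of the 28 genes, 8 fell and 5 rose at 72 h. At day 3, 12 fell and 2 rose. Among all tested genes 17.9% fell and 18.3% rose at 72 h (36.2% either way), and 15.7% fell and 15.1% rose at day 3 (30.8% either way). Of the 16 mevalonate and sterol enzymes, 7 fell at 72 h and 11 at day 3, and TM7SF2 rose at both times. The median log2 fold change of the 16 was -0.37 at 72 h and -0.71 at day 3, against 0.03 and 0.02 for all tested genes. Both comparisons use the same untreated libraries. In bulk RNA, fewer cells of a type and less RNA per cell cannot be told apart. With ERCC scaling, 7 of the 8 members that fell at 72 h and 10 of the 12 at day 3 had positive values.

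ACAT2, the cytosolic thiolase that makes acetoacetyl-CoA, changed most among the enzymes that fell. In MYCN-high cells it stood at 54.7 and 56.7 CPM untreated, 5.09 and 4.40 CPM at 72 h, 8.42 and 9.43 CPM at day 3, 26.2 and 39.4 CPM at day 8, and 56.5 and 57.7 CPM at day 14. Every treated library up to day 8 lay below both untreated ones, and both day 14 libraries lay beside them. The log2 fold change was -3.55 ± 0.24 at 72 h (edgeR, adjusted p = 4.9e-07) and -2.64 ± 0.23 at day 3 (adjusted p = 8.13e-06). By GENCODE release 29, ACAT2 shares 397 exon bases with TCP1, a chaperonin subunit gene on the opposite strand, and the strand setting of the counting is not given in the sources used here. TCP1 fell by 1.11 ± 0.18 at 72 h in the same cells, and what shared reads add to ACAT2 was not tested. HMGCS1, which makes HMG-CoA in the cytosol, had 61.6 and 46.5 CPM at 72 h, against 95.1 and 108 CPM untreated. Its fall of -0.91 ± 0.24 (adjusted p = 0.00724) was not called once replicate C was left out, be it the untreated one (adjusted p = 0.052) or that of 72 h (0.0785).

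Further along the mevalonate arm, IDI1, the isomerase of isopentenyl diphosphate, was at 48.3 and 41.4 CPM at 72 h, against 96.4 and 109.9 CPM untreated. At day 3 it was at 36.9 and 34.0 CPM, the lowest of any MYCN-high time, and the libraries did not overlap with the untreated ones. Its log2 fold changes were -1.20 ± 0.28 and -1.54 ± 0.29 (adjusted p = 0.00367 and 0.000963). FDPS, which makes farnesyl diphosphate for sterols and for prenylation, was at 160.3 and 179.7 CPM at 72 h and 149 and 152 CPM at day 3, against 239 and 273 CPM untreated. It fell by 0.59 ± 0.14 at 72 h (adjusted p = 0.00409) and by 0.76 ± 0.14 at day 3 (adjusted p = 0.000938), and the first call was lost without untreated replicate C (adjusted p = 0.0516). FDPS overlaps the antisense gene RUSC1-AS1 over 693 exon bases and has 8 named pseudogenes in the annotation, so part of its counts is uncertain. IDI1 shares 643 exon bases with the antisense gene IDI2-AS1, and HMGCS1 shares 703 with the antisense gene AC114947.2. Some further members share exon bases with other genes too, and what shared reads add was not tested. MVD, the mevalonate diphosphate decarboxylase, fell at day 3 (-0.81 ± 0.28, adjusted p = 0.0389), a call lost without any 1 of the 4 libraries (adjusted p up to 0.236, without replicate C of day 3). The kinases MVK (-0.26 ± 0.33 and -0.49 ± 0.33) and PMVK (-0.13 ± 0.22 and -0.25 ± 0.23) passed at neither time.

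In the sterol branch, EBP, the sterol isomerase late in the pathway, had 12.6 and 18.5 CPM at 72 h and 21.0 and 23.5 CPM at day 3, against 53.3 and 63.5 CPM in untreated MYCN-high cells. All 4 treated libraries lay at 23.5 CPM or less, well apart from the untreated ones. EBP fell by 1.91 ± 0.20 at 72 h (adjusted p = 5.02e-06) and by 1.39 ± 0.20 at day 3 (adjusted p = 0.000142). CYP51A1, the lanosterol demethylase, was at 151 and 140.4 CPM at 72 h, against 279 and 326 CPM untreated. SQLE, squalene epoxidase and a control point of the branch, was at 81.1 and 91.0 CPM at 72 h, against 153 and 175 CPM untreated. Both stayed apart from their untreated libraries at day 3 as well. CYP51A1 fell by 1.05 ± 0.17 and 1.12 ± 0.17 at 72 h and day 3, and SQLE by 0.93 ± 0.22 and 0.98 ± 0.22, with adjusted p of 0.00354 or less in edgeR. By the annotation CYP51A1 shares 2844 exon bases with AC000120.2 on the same strand and has 3 named pseudogenes, so part of its counts is uncertain. FDFT1, which makes squalene (-0.57 ± 0.14), the lanosterol synthase gene LSS (-0.65 ± 0.18) and NSDHL, which acts in removal of sterol methyl groups (-0.54 ± 0.17), fell at day 3 and did not pass at 72 h. The FDFT1 call was lost without replicate B of the untreated cells or replicate C of day 3 (adjusted p = 0.0546 and 0.0727). The LSS call was lost without replicate C of either group (0.141 without that of the untreated cells), and the NSDHL call without any 1 of the 4 libraries (adjusted p up to 0.128). HSD17B7, a reductase of the same step as NSDHL (0.38 ± 0.26 and -0.41 ± 0.26), and DHCR7, the last reductase of one route to cholesterol (0.05 ± 0.29 and -0.65 ± 0.29), passed at neither time. Without replicate C of day 3, 9 members were called at that time in place of 14.

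**Figure D1:**
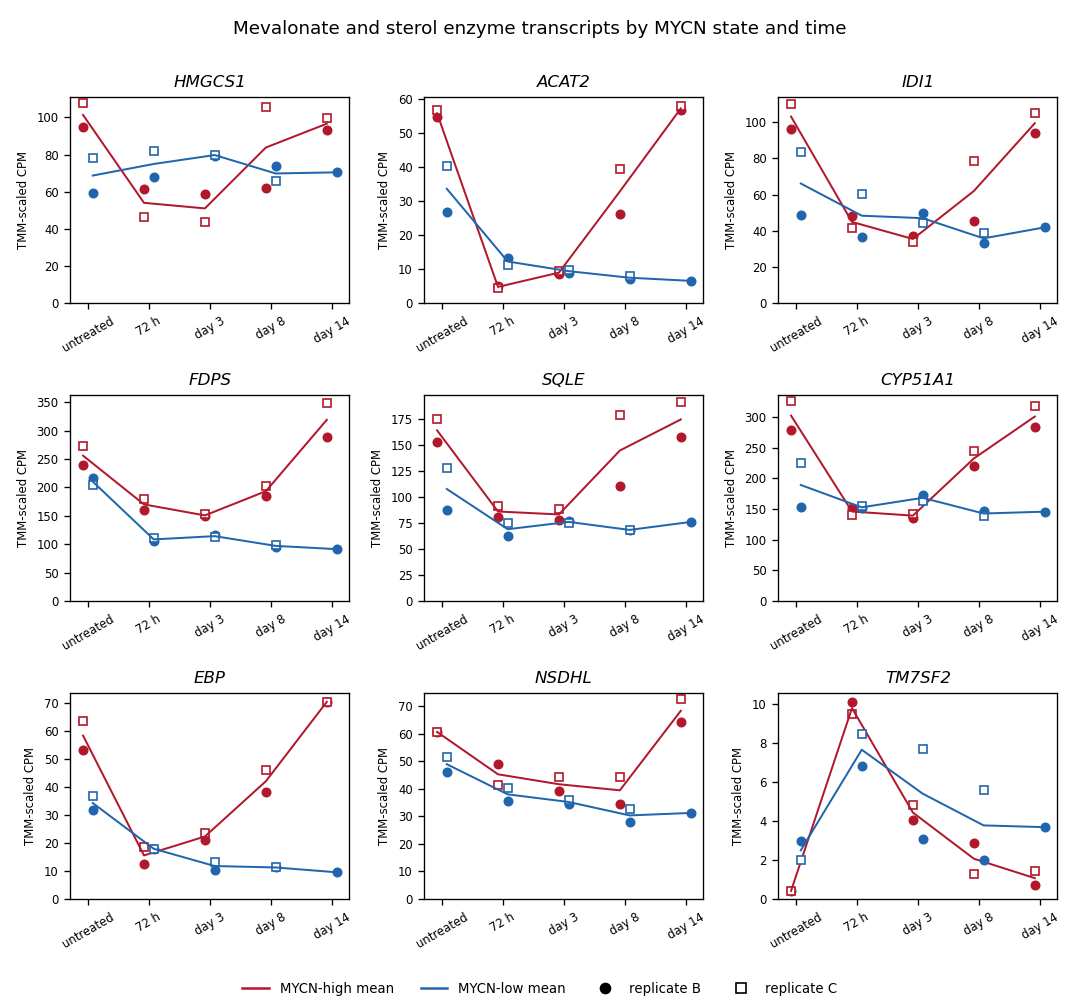
Levels of 9 enzymes in TMM-scaled CPM (y axis, linear, from 0) by time (x axis). Filled circles are replicate B and open squares replicate C, and lines join the group means, in red for MYCN-high and blue for MYCN-low cells, which have 1 library at day 14. ACAT2, FDPS, CYP51A1 and EBP drop by 72 h in MYCN-high cells and stand at or above their untreated level at day 14, except CYP51A1, whose mean is slightly under it, while ACAT2, FDPS and EBP stay low in MYCN-low cells; TM7SF2 is highest at 72 h, and with ERCC scaling most of the falls in MYCN-high cells change sign.

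TM7SF2, a sterol reductase of the step after CYP51A1, rose where its neighbours fell. It was at 10.1 and 9.47 CPM at 72 h and 4.02 and 4.80 CPM at day 3, against 0.390 and 0.416 CPM in untreated MYCN-high cells. The treated and untreated libraries did not overlap. Its log2 fold changes were 4.58 ± 0.63 (adjusted p = 4.49e-05) and 3.43 ± 0.63 (adjusted p = 0.000858), and both kept their call without each library in turn. ABCA1, the pump that exports cholesterol to lipoproteins, moved the same way, at 3.82 and 4.02 CPM at 72 h, against 0.195 and 0.185 CPM untreated. ABCA1 rose by 4.32 ± 0.66 (adjusted p = 0.000125) and, at day 3, by 3.93 ± 0.68 (adjusted p = 0.000563). TM7SF2 and ABCA1 at 72 h were the only members still called with ERCC scaling, in any of the 17 comparisons. The untreated levels of both genes are low, which limits the precision of these folds.

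Among the regulators, INSIG1 fell with the enzymes, while SREBF1 and SREBF2 rose at 72 h. INSIG1, itself a target of SREBP, was at 34.5 and 35.2 CPM at 72 h and 24.3 and 30.5 CPM at day 3, against 74.0 and 138 CPM in untreated MYCN-high cells. All treated libraries lay below both untreated ones, although the untreated pair is itself far apart. It fell by 1.61 ± 0.31 (adjusted p = 0.000906) and 1.95 ± 0.32 (adjusted p = 0.000355). SREBF2, the main factor for sterol genes, was at 45.0 and 71.9 CPM at 72 h, against 22.5 and 24.7 CPM untreated. SREBF1, whose products act mostly on fatty acid genes, was at 46.9 and 74.4 CPM, against 19.1 and 29.8 CPM untreated. In both genes replicate C was the higher of the 72 h pair, and the groups did not overlap. They rose by 1.31 ± 0.30 (SREBF2, adjusted p = 0.00322) and 1.31 ± 0.33 (SREBF1, adjusted p = 0.00567). At day 3 neither passed, with 0.18 ± 0.30 and 0.62 ± 0.33. The SREBF1 call at 72 h was lost without replicate B of the untreated cells (adjusted p = 0.0739) or replicate C of the 72 h cells (adjusted p = 0.0704). SREBF1 shares 556 exon bases with RAI1 on the opposite strand, which did not pass at 72 h in MYCN-high cells (0.24 ± 0.29). SCAP had values of 0.52 ± 0.22 and 0.33 ± 0.22 at 72 h and day 3 and was the only member called in none of the 17 comparisons.

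Of the 5 fatty acid genes, FASN, the fatty acid synthase, rose at 72 h, at 361 and 503 CPM, against 234 and 289.6 CPM in untreated MYCN-high cells (0.72 ± 0.21, adjusted p = 0.0148). The call was lost without replicate B of the untreated cells (adjusted p = 0.128) or replicate C of the 72 h cells (adjusted p = 0.169). The desaturase gene SCD (0.07 ± 0.27), the acetyl-CoA carboxylase gene ACACA (-0.06 ± 0.19), ACLY, which makes cytosolic acetyl-CoA from citrate (0.08 ± 0.14), and the elongase gene ELOVL6 (-0.14 ± 0.24) did not pass. STARD4, a carrier of cholesterol between membranes (0.42 ± 0.24), and NPC1, which exports cholesterol from lysosomes (0.49 ± 0.27), did not pass either. The 10 proliferation markers followed beside these genes all fell at 72 h and at day 3 in MYCN-high cells, with medians of -3.70 and -1.76. Only 2 of the 9 structured RNAs listed, RMRP and RPPH1, are in the table, and both rose, by 1.00 ± 0.32 and 1.29 ± 0.35 at 72 h. The part of either in the enzymes' levels was not tested.

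Promoter windows from 250 bases before to 50 after the gene start were read from RefSeq (GRCh38.p14) for 24 of the 28 members, all but ACAT2, FASN, FDFT1 and SQLE. Of these, 6 are shown because the results turn on them: EBP, FDPS and INSIG1, which fell in treated MYCN-high cells, and SREBF2, TM7SF2 and ABCA1, which rose. They lie at chrX:48521558-48521857 (EBP, plus strand), chr1:155308616-155308915 (FDPS, plus strand), chr7:155297628-155297927 (INSIG1, plus strand), chr22:41832855-41833154 (SREBF2, plus strand), chr11:65111622-65111921 (TM7SF2, plus strand) and chr9:104928106-104928405 (ABCA1, minus strand). Capitals mark a CCAAT box (CCAAT, or ATTGG on the other strand), an E-box (CACGTG, the letters MYC proteins can bind) or a sterol element (ATCAC, any base, then CCAC).
EBP: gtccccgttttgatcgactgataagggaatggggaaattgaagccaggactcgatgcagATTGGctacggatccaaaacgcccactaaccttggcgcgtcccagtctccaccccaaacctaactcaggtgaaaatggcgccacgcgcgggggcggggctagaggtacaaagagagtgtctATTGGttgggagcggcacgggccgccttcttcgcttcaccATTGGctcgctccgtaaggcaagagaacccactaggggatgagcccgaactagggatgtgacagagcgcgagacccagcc
FDPS: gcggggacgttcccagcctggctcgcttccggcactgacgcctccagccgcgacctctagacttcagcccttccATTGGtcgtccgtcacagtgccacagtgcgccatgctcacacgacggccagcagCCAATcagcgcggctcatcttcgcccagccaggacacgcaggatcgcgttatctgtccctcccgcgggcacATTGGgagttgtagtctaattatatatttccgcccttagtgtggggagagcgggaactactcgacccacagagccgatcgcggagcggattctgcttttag
INSIG1: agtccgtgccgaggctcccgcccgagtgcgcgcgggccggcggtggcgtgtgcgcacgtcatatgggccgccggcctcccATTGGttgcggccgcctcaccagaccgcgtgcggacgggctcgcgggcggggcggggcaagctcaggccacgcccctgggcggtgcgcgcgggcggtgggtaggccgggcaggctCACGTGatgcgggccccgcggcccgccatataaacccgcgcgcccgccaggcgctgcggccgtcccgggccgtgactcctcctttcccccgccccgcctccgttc
SREBF2: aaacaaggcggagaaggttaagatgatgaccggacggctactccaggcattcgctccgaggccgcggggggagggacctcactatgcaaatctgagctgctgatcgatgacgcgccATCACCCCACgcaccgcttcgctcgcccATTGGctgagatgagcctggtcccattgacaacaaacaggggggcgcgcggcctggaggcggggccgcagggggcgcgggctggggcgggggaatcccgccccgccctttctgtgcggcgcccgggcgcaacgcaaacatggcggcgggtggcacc
TM7SF2: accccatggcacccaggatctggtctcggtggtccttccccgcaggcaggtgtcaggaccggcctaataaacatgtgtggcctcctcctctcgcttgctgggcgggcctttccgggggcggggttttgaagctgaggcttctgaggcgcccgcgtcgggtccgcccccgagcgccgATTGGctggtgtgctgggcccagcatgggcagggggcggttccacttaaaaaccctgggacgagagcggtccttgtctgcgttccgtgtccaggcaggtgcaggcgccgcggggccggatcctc
ABCA1: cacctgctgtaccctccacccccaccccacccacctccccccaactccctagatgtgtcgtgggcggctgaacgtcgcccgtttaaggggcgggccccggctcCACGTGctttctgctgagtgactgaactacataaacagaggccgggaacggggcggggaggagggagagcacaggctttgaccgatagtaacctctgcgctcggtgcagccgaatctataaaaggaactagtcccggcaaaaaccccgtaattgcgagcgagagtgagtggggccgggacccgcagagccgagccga

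The sterol element, searched on both strands, was in 1 of the 24 windows, that of SREBF2 (position -134 from the start). This is 4.17% of the members, against 0.154% of 35116 promoters of the same length and 0.0897% of the 10036 that belong to tested genes. The E-box was in 4 windows, those of LSS, SCAP, INSIG1 (position -55) and ABCA1 (position -147), which is 16.7% of the members, 7.26% of all promoters and 9.77% of those of tested genes. CCAAT boxes were in 15 windows, 62.5% of the members, 34.6% of all promoters and 37.1% of those of tested genes. EBP and FDPS hold 3 each. In the 6 windows shown no match overlapped another. A match is a match of letters and does not show binding. Only the exact letters given above were searched, so a missing match does not show that an element is absent.

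At day 8 after washout 3 members differed from untreated MYCN-high cells, a number near the share of all tested genes, and at day 14 no member was called. At day 8, 1 of the 28 rose and 2 fell against untreated cells, among 4.49% and 4.09% of all tested genes (8.58% either way). TM7SF2 (2.34 ± 0.64, adjusted p = 0.0346) was the one that rose, and ACAT2 (-0.77 ± 0.22, adjusted p = 0.0404) and NSDHL (-0.62 ± 0.17, adjusted p = 0.0343) fell. None of the 3 was called without replicate B of untreated cells, replicate C of untreated cells or replicate B of day 8, and with ERCC scaling ACAT2 and NSDHL had positive values. The replicates of day 8 lay far apart in several genes, with INSIG1 at 63.1 and 107 CPM and HMGCS1 at 61.9 and 106 CPM in replicates B and C.

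At day 14 edgeR called 0 of the 28 members and 0% of all tested genes in either direction (0% higher, 0% lower). At an unadjusted p under 0.05 there were 1245 genes and 1 member, FDPS, and DESeq2's Wald test called 0 members. FDPS was at 288 and 349 CPM at day 14, against 239 and 273 CPM in untreated MYCN-high cells (0.32 ± 0.14, adjusted p = 0.563). The day 14 pair lay above the untreated pair. EBP was at 70.6 and 70.4 CPM, against 53.3 and 63.5 CPM untreated, also without overlap (0.27 ± 0.19). Over the 28 members the log2 values ran from -0.39 (FASN) to 1.39 (TM7SF2), with a median of 0.09, against -0.01 for all tested genes. Of the 16 enzymes, 10 had their highest MYCN-high group mean at day 14 and 10 had their lowest at day 3, and none had its lowest at day 14. A missed threshold does not show that levels at day 14 equal those of untreated cells.

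In MYCN-low cells 6 of the 16 enzymes fell during the drug, and ACAT2, EBP, FDPS and MVK were lower than in untreated cells at all 4 later times. Of the 28 members, 6 fell and 2 rose at 72 h, among 12.1% and 10.2% of all tested genes (22.3% either way), and 6 fell and 1 rose at day 3, among 12.7% and 10.5% (23.2% either way). The number called in either direction at day 3 was near the share of all tested genes. At day 8, 15 fell and 1 rose, among 14.6% and 10.2% (24.9% either way), and at day 14, 9 fell and 1 rose, among 10.7% and 7.63% (18.4% either way). The member medians were -0.32, -0.35, -0.63 and -0.58 at the 4 times, against 0.01, 0.02, -0.02 and -0.05 for all tested genes. With ERCC scaling 2 of the 7 calls at day 3 and 9 of the 16 at day 8 changed sign, and none did at 72 h or day 14. All 4 comparisons use the same 2 untreated libraries, and the 14-day one rests on 1 library, whose variance was borrowed from the remaining groups.

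Of the 16 enzymes, 13 had their highest MYCN-low mean in untreated cells, and 14 had their lowest at day 8 or day 14. ACAT2 stood at 26.9 and 40.2 CPM untreated, 13.2 and 11.2 CPM at 72 h, 8.91 and 9.81 CPM at day 3, 6.97 and 7.89 CPM at day 8 and 6.52 CPM at day 14. Each group of treated libraries lay below the one before it in time, and all lay below the untreated pair. Its log2 fold change was -1.46 ± 0.22 at 72 h (adjusted p = 0.000213) and -2.36 ± 0.31 at day 14 (adjusted p = 0.000222). EBP stood at 31.6 and 36.9 CPM untreated, 17.9 and 17.9 CPM at 72 h, 10.3 and 13.1 CPM at day 3, 11.2 and 11.2 CPM at day 8 and 9.47 CPM at day 14. EBP fell by 0.94 ± 0.20 at 72 h (adjusted p = 0.00324) and by 1.85 ± 0.27 at day 14 (adjusted p = 0.000426). FDPS stood at 217 and 203 CPM untreated, 106 and 111 CPM at 72 h, 116 and 112 CPM at day 3, 94.8 and 99.1 CPM at day 8 and 91.2 CPM at day 14. It too had no treated library near the untreated ones, with -0.95 ± 0.14 at 72 h and -1.20 ± 0.18 at day 14 (adjusted p = 0.000166 and 0.00056). ACAT2, EBP and FDPS kept their calls without each library in turn at all 4 times.

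MVK, the mevalonate kinase, fell at all 4 times in MYCN-low cells, by 0.97 ± 0.33 at 72 h and by 1.78 ± 0.34 at day 8 (adjusted p = 0.0467 and 0.00154). Its untreated replicates, at 12.6 and 7.74 CPM, were unlike, and without replicate B of them the calls at 72 h, day 3 and day 14 were lost (adjusted p = 0.303, 0.209 and 0.114). At 72 h and day 3 they were lost too without either treated library (adjusted p up to 0.214 and 0.179). MVK shares 306 exon bases with MMAB on the opposite strand, which fell by 0.84 ± 0.24 at 72 h. DHCR7 fell at 72 h, day 8 and day 14, by 0.85 ± 0.29, 0.95 ± 0.29 and 1.14 ± 0.38, and lost all 3 calls without replicate B of the untreated cells (adjusted p = 0.399, 0.277 and 0.214), and those at 72 h and day 8 also without replicate B of the treated cells (0.323 and 0.192). HMGCS1 was at 67.8 and 82.1 CPM at 72 h, against 59.2 and 78.2 CPM in untreated MYCN-low cells, with overlapping groups (0.12 ± 0.24). CYP51A1 was at 151 and 154 CPM at 72 h, against 154 and 224 CPM untreated (-0.31 ± 0.17), and IDI1 at 36.5 and 60.2 CPM, against 48.8 and 83.4 CPM (-0.45 ± 0.28). Neither passed at 72 h. INSIG1 passed at day 8 alone, at 27.995 and 34.1 CPM, against 67.6 and 102 CPM untreated (-1.45 ± 0.31, adjusted p = 0.00347). SREBF2 also passed at day 8, with -0.86 ± 0.30 (adjusted p = 0.0481), a call lost without replicate B of the untreated cells (adjusted p = 0.58) or either day 8 library (0.325 and 0.0505). Its untreated replicates B and C stood at 54.2 and 26.6 CPM.

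Of the 5 fatty acid genes, FASN and ACLY fell in MYCN-low cells. FASN was at 101 and 109.99 CPM at day 8 and 85.6 CPM at day 14, against 227 and 150.4 CPM untreated (-0.84 ± 0.21 and -1.14 ± 0.27, adjusted p = 0.0103 and 0.00988). ACLY was at 511 and 576 CPM at day 8 and 444 CPM at day 14, against 806 and 754 CPM untreated (-0.52 ± 0.14 and -0.81 ± 0.18, adjusted p = 0.0154 and 0.00652). Neither gene's late libraries overlapped with the untreated ones. The day 8 calls were lost without replicate B of day 8 (adjusted p = 0.0922 for FASN and 0.155 for ACLY), and that of FASN without replicate B of the untreated cells (0.114). ACLY was also lower at day 3 (-0.43 ± 0.14, adjusted p = 0.0407), a call lost without replicate B of the untreated cells or either day 3 library (up to 0.185). SCD, ACACA and ELOVL6 passed at none of the 4 times. ABCA1 rose at all 4, at 8.42 and 8.06 CPM at 72 h, 16.6 and 5.82 CPM at day 3, 13.8 and 9.41 CPM at day 8 and 20.8 CPM at day 14, against 1.54 and 2.87 CPM untreated. Every treated library lay above both untreated ones, and the log2 fold change at day 14 was 3.22 ± 0.55 (adjusted p = 0.00128). The 72 h call of ABCA1 was lost without replicate B of the untreated or the 72 h cells (adjusted p = 0.0909 and 0.0537), and the day 3 call without replicate B of day 3 (0.0758). TM7SF2 rose at 72 h, with 6.82 and 8.45 CPM, against 2.97 and 1.99 CPM untreated (1.63 ± 0.52, adjusted p = 0.0345), and lost that call without any 1 of the 4 libraries. Of the 10 proliferation markers, 9 fell at 72 h and all 10 at day 3, day 8 and day 14 in MYCN-low cells, with medians of -5.98, -5.38, -3.11 and -3.11, and their part in these levels was not tested. Single libraries moved the number of members called: it was 3 without replicate B and 5 without replicate C of 72 h, 3 and 4 without replicates B and C of day 3, and 7 without replicate B of day 8.

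**Figure D2:**
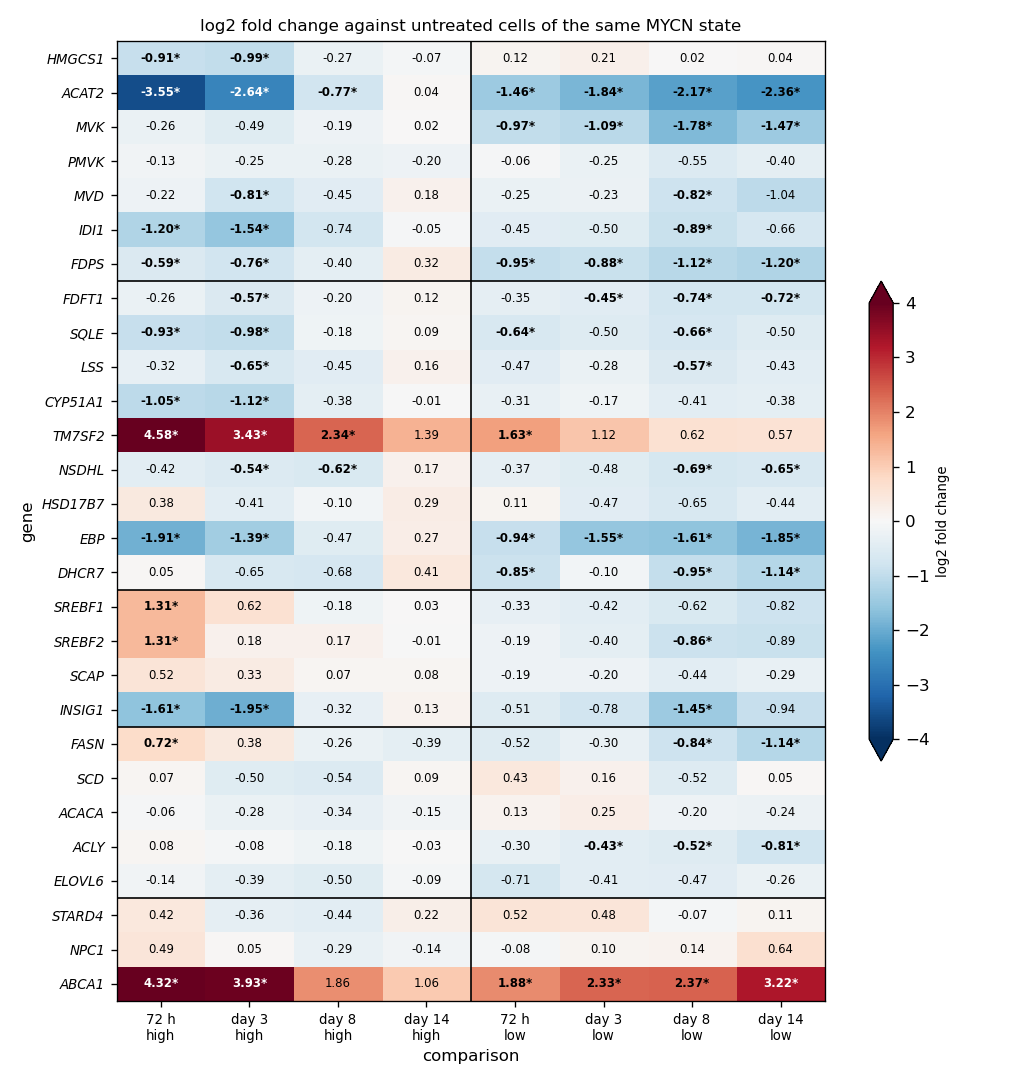
Log2 fold change of each of the 28 members (rows, by role) against untreated cells of the same MYCN state (columns, by time; MYCN-high left, MYCN-low right). Bold values with an asterisk passed edgeR's test at an adjusted p under 0.05; colours stop at -4 and 4. Blue in the MYCN-high block fades by day 14, while it deepens to day 8 in the MYCN-low block, and TM7SF2 and ABCA1 are red; with ERCC scaling 19 of the called values in the MYCN-high block and 11 in the MYCN-low block change sign.

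Whether the states responded unequally was tested directly, as the MYCN-high log2 fold change minus the MYCN-low one. At 72 h, 4 members had a larger value in MYCN-high cells and 2 a smaller one, among 6.63% and 4.06% of all tested genes (10.7% either way). SREBF1 (1.64 ± 0.46), SREBF2 (1.50 ± 0.42) and FASN (1.25 ± 0.30) rose in MYCN-high cells and had negative values in MYCN-low cells, at -0.33 ± 0.32, -0.19 ± 0.30 and -0.52 ± 0.21. TM7SF2 rose more in MYCN-high cells (2.95 ± 0.80), where its untreated level was lower. RAI1, whose exons overlap those of SREBF1, fell at 72 h in MYCN-low cells (-0.85 ± 0.29, adjusted p = 0.0465) and had a difference of 1.096 ± 0.41 (adjusted p = 0.0939), and the part of shared reads in SREBF1 was not tested. ACAT2 (-2.09 ± 0.32, adjusted p = 0.00237) and EBP (-0.98 ± 0.28, adjusted p = 0.0371) fell further in MYCN-high cells. With ERCC scaling the ACAT2 and EBP differences were 0.01 and 0.71. ACAT2 alone kept its call without each library in turn, and the others reached adjusted p of 0.0875 (FASN), 0.152 (SREBF1), 0.177 (SREBF2), 0.105 (TM7SF2) and 0.137 (EBP). At day 3 the number called in either direction was near the share of all tested genes. None was larger and 2 were smaller in MYCN-high cells, among 5.1% and 2.48% of all tested genes (7.58% either way): HMGCS1 (-1.20 ± 0.33) and CYP51A1 (-0.95 ± 0.24), which fell in MYCN-high cells and did not pass in MYCN-low cells at that time. Neither call held without each library, with adjusted p up to 0.172 and 0.104, and with ERCC scaling both differences were positive.

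From day 8 on the difference was positive for every member that passed. At day 8 these were 3, ACAT2 (1.41 ± 0.31), EBP (1.14 ± 0.28) and FDPS (0.71 ± 0.20), and none was smaller, among 4.41% and 1.94% of all tested genes (6.35% either way), and with the replicate letter as a block 5 members were called. At day 14 they were 5, ACAT2 (2.40 ± 0.37, adjusted p = 0.0021), EBP (2.13 ± 0.33, adjusted p = 0.00214), FDPS (1.52 ± 0.23, adjusted p = 0.00191), FDFT1 (0.84 ± 0.23, adjusted p = 0.037) and ACLY (0.78 ± 0.23, adjusted p = 0.0492), and none was smaller, among 4.87% and 2.53% (7.41% either way). The median over the 28 members was 0.12 at 72 h, -0.06 at day 3, 0.36 at day 8 and 0.74 at day 14, against 0.03, 0.05, 0.05 and 0.05 for all tested genes. ACAT2, EBP and FDPS kept their day 14 calls without each library in turn, and FDFT1 and ACLY did not (adjusted p up to 0.122 and 0.155). None of the day 8 calls held without each library (adjusted p up to 0.0946 for ACAT2, 0.123 for EBP and 0.194 for FDPS). With ERCC scaling the day 14 differences of FDPS, FDFT1 and ACLY were -0.05, -0.78 and -0.75. The 4 tests share the untreated libraries of both states, and the number of members called depended on them: without replicate C of untreated MYCN-low cells it was 12, 10, 7 and 10 at the 4 times, and without replicate B of untreated MYCN-high cells it was 1, 1, 0 and 3. Leaving out any 1 library gave 1 to 12 calls at 72 h, 0 to 10 at day 3, 0 to 7 at day 8 and 3 to 10 at day 14.

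Set against each other at the same time, the states differed in 9 to 21 members, with 21 at day 14. In untreated cells and at 72 h the number called in either direction was near the share of all tested genes. Before treatment 8 members stood higher in MYCN-high cells and 3 lower, among 16.5% and 18.6% of all tested genes (35.1% either way). At 72 h 8 were higher and 1 lower, among 15.5% and 14.4% (29.9% either way), and at day 3, 6 and 6, among 17% and 14.8% (31.8% either way). At day 8, 15 were higher and 2 lower, among 23.4% and 20.5% (43.9% either way), and at day 14, 18 and 3, among 21.4% and 20.5% (41.8% either way). The member medians were 0.32, 0.33, 0.08, 0.64 and 1.08, against -0.04, 0.01, 0.04, 0.02 and 0.00 for all tested genes. Days 8 and 14 share no library but come from the same cell line and MYCN states. The members called higher at both were 14 of the 15 at day 8 and 14 of the 18 at day 14. The share of all tested genes called higher at both times was not computed, so the overlap is not read as a result about the members. With ERCC scaling 5 of the 12 calls at day 3, 1 of the 9 at 72 h and 1 of the 21 at day 14 changed sign, and no call did in untreated cells or at day 8.

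The mevalonate and sterol enzymes made up 12 of the 18 members called higher in MYCN-high cells at day 14, near their share of the list, 16 of 28. All 5 fatty acid genes were among the 18 as well. ACAT2 was at 56.5 and 57.7 CPM in MYCN-high cells, against 6.52 CPM in the single MYCN-low library (3.13 ± 0.32, adjusted p = 6.14e-06). EBP was at 70.6 and 70.4 CPM, against 9.47 CPM (2.89 ± 0.28, adjusted p = 4.57e-06), FDPS at 288 and 349 CPM, against 91.2 CPM (1.81 ± 0.19, adjusted p = 7.46e-06), and DHCR7 at 17.7 and 25.2 CPM, against 6.52 CPM (1.72 ± 0.39, adjusted p = 0.00236). None of these pairs came near the MYCN-low library. INSIG1, at 104 and 129 CPM against 44.4 CPM, was higher as well (1.39 ± 0.40, adjusted p = 0.011), but not without replicate C of MYCN-high cells (adjusted p = 0.0556). In untreated cells the enzymes differed less, with ACAT2 at 0.73 ± 0.22, EBP at 0.77 ± 0.20 and FDPS at 0.28 ± 0.14, and FDPS did not pass. TCP1, whose exons overlap those of ACAT2, was also higher in MYCN-high cells, by 1.15 ± 0.18 untreated and 1.46 ± 0.23 at day 14. At 72 h TCP1 was higher too (0.56 ± 0.17), while ACAT2 was lower. The part of shared reads in the ACAT2 differences was not tested. The untreated calls of ACAT2, FDFT1, SQLE, CYP51A1, EBP, ACACA, ELOVL6 and NPC1 were each lost without at least 1 library (adjusted p up to 0.307, SQLE without replicate B of MYCN-low cells), and TM7SF2, SCD and ABCA1 kept theirs. At 72 h ACAT2 was the single member called lower in MYCN-high cells, at 5.09 and 4.40 CPM, against 13.2 and 11.2 CPM in MYCN-low cells (-1.36 ± 0.23, adjusted p = 0.000497), where ERCC scaling gave 1.29. TM7SF2 was lower in untreated MYCN-high cells, at 0.390 and 0.416 CPM against 2.97 and 1.99 CPM (-2.59 ± 0.63, adjusted p = 0.00534), and did not pass at 72 h, with 10.1 and 9.47 CPM against 6.82 and 8.45 CPM (0.35 ± 0.49). At day 14 TM7SF2 was the third member called lower in MYCN-high cells beside NPC1 and ABCA1, at 0.702 and 1.41 CPM against 3.67 CPM (-1.78 ± 0.65, adjusted p = 0.0384). That call was lost without replicate B of MYCN-high cells, where the value was -1.44.

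**Figure D3:**
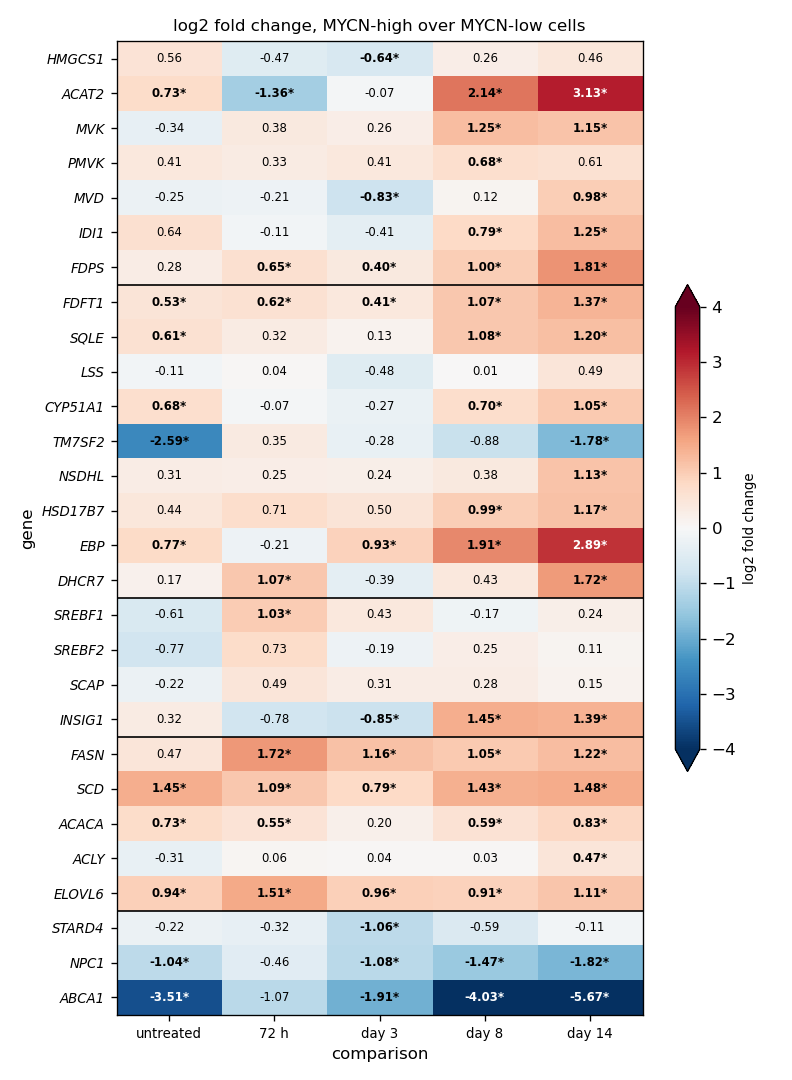
Log2 fold change of MYCN-high over MYCN-low cells for each of the 28 members (rows, by role) at each time (columns). Bold values with an asterisk passed edgeR's test at an adjusted p under 0.05; colours stop at -4 and 4. SCD and ELOVL6 are red in all 5 columns, FASN reaches its highest value at 72 h, ACAT2 and EBP are deepest red at days 8 and 14, TM7SF2 is blue in untreated cells and at days 8 and 14, and NPC1 and ABCA1 are blue; with ERCC scaling 1 called value at 72 h, 5 at day 3 and 1 at day 14 change sign.

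Of the 5 fatty acid synthesis genes, 3, 4, 3, 4 and 5 were called higher in MYCN-high cells when untreated, at 72 h, day 3, day 8 and day 14, and none lower. Among all tested genes 16.5%, 15.5%, 17%, 23.4% and 21.4% were called higher, and 18.6%, 14.4%, 14.8%, 20.5% and 20.5% lower. Several calls of the 5 genes rested on single libraries. ACACA was not called at 72 h without any 1 of the 4 libraries (adjusted p up to 0.205), nor at day 8 in 3 of 4 such fits, nor at day 14 without replicate B of MYCN-high cells (0.104). ACLY at day 14 was lost without either MYCN-high library (0.117 and 0.176) and had -0.36 with ERCC scaling, and in untreated cells it was at 614 and 643 CPM in MYCN-high cells, against 806 and 754 CPM in MYCN-low cells, a difference that did not pass. SCD at 72 h was lost without replicate B of MYCN-low cells (0.0978). SCD, which makes monounsaturated fatty acids, was at 362 and 577 CPM in MYCN-high cells, against 151 and 194 CPM in MYCN-low cells untreated (1.45 ± 0.28, adjusted p = 0.00105). At day 14 it was at 456 and 545 CPM, against 179 CPM (1.48 ± 0.36, adjusted p = 0.00363). ELOVL6 was at 56.5 and 53.1 CPM at 72 h, against 18.3 and 20.2 CPM (1.51 ± 0.25, adjusted p = 0.000383). SCD, ELOVL6 and FDFT1 were the members called higher at all 5 times, although SCD and FDFT1 lost the day 3 call without any 1 of the 4 libraries (adjusted p up to 0.185 and 0.257), and of its 5 calls ELOVL6 kept that at 72 h alone in every such fit. FASN did not differ past the threshold in untreated cells (234 and 289.6 CPM against 227 and 150.4 CPM; 0.47 ± 0.21, adjusted p = 0.0956). At 72 h it was at 361 and 503 CPM, against 119 and 143 CPM in MYCN-low cells (1.72 ± 0.22, adjusted p = 4.48e-05), and it stayed higher at days 3, 8 and 14, by 1.16 ± 0.21, 1.05 ± 0.21 and 1.22 ± 0.28. Its libraries of the 2 states did not overlap at any time.

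Of the sterol transport genes, NPC1 and ABCA1 were called lower in MYCN-high cells at every time but 72 h. At 72 h both were lower too but did not pass. NPC1 was then at 33.4 and 29.2 CPM, against 41.6 and 44.8 CPM in MYCN-low cells. ABCA1 was then at 3.82 and 4.02 CPM, against 8.42 and 8.06 CPM. NPC1, the lysosomal exporter, was at 21.0 and 23.6 CPM in untreated MYCN-high cells, against 43.4 and 48.0 CPM in MYCN-low cells (-1.04 ± 0.27, adjusted p = 0.00836). At day 14 it was at 25.2 and 15.2 CPM, against 71.2 CPM (-1.82 ± 0.32, adjusted p = 0.000338). By the annotation it shares 604 exon bases with RMC1, which was not analysed here. ABCA1 was at 0.195 and 0.185 CPM in untreated MYCN-high cells, against 1.54 and 2.87 CPM (-3.51 ± 0.68, adjusted p = 0.00117). At day 14 ABCA1 was at 0.234 and 0.554 CPM, against 20.8 CPM (-5.67 ± 0.65, adjusted p = 1.45e-05). The states did not overlap at any time in either gene. The untreated NPC1 call was lost without replicate B of MYCN-high cells, where its value was -0.99. At day 3 the NPC1 call was lost without replicate B of MYCN-low cells or replicate C of MYCN-high cells (0.122 and 0.0894). The ABCA1 call there was lost without the same libraries (0.176 and 0.0526), and its value was -0.98 without that MYCN-low library, against -1.91 ± 0.48 with it. STARD4 was called lower in MYCN-high cells at day 3 alone, at 38.0 and 27.5 CPM against 72.6 and 63.8 CPM (-1.06 ± 0.24, adjusted p = 0.00312). Without replicate C of MYCN-high cells that call was lost, with a value of -0.84. At day 8 STARD4 did not pass, at 28.4 and 33.8 CPM against 49.1 and 44.4 CPM, without overlap. With ERCC scaling the STARD4 and NPC1 values at day 3 were positive. Proliferation markers were also higher in MYCN-high cells, 3 of 10 untreated, 9 at 72 h, when PCNA was lower (-0.54 ± 0.19), and all 10 at days 3, 8 and 14, and their part was not tested. The number of members called moved with single libraries in untreated cells (7, 6 and 4 without replicate B of MYCN-high, B of MYCN-low and C of MYCN-high), at 72 h (5 without replicate B of MYCN-low) and at day 3 (7 and 3 without replicates B and C of MYCN-high, 5 and 5 without those of MYCN-low).

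**Figure D4:**
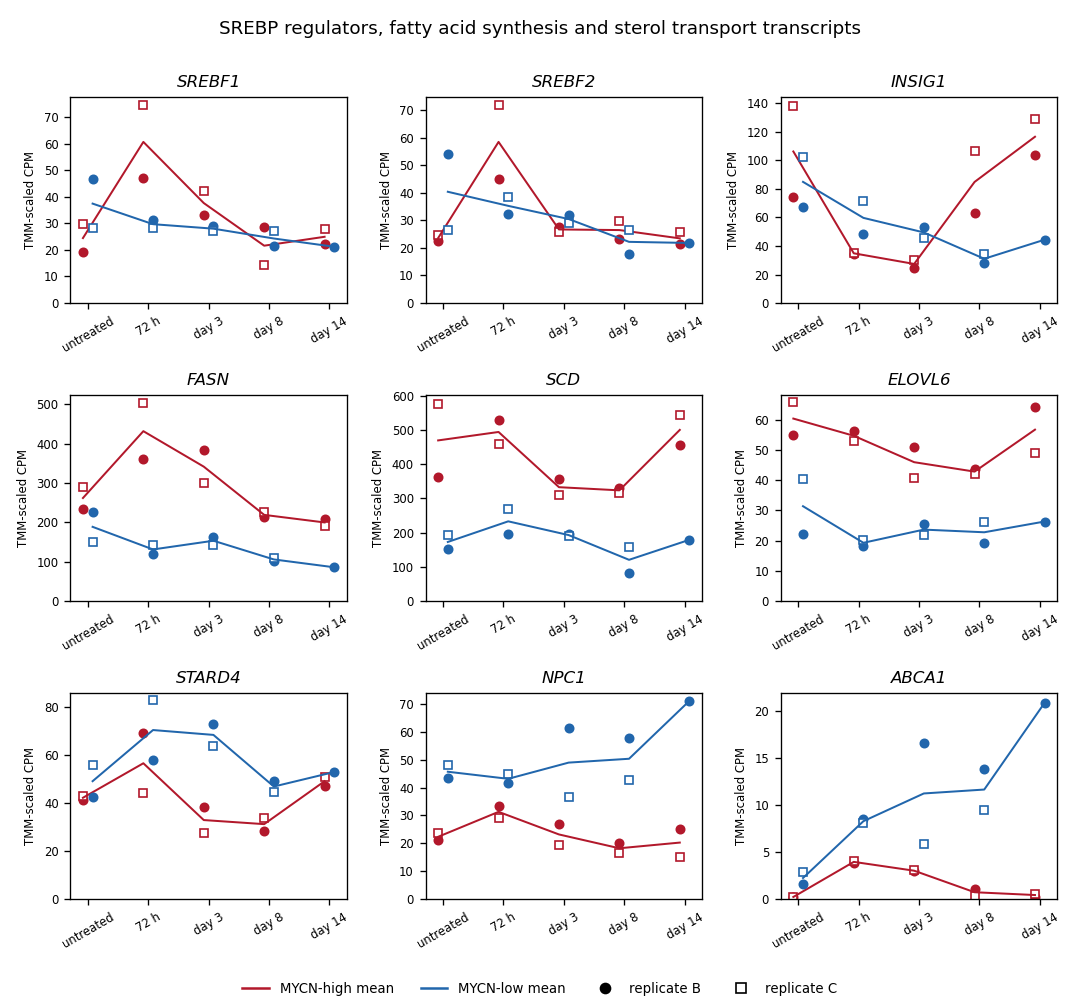
Levels of SREBP regulators, fatty acid genes and sterol transport genes in TMM-scaled CPM (y axis, linear, from 0) by time (x axis). Filled circles are replicate B and open squares replicate C, and lines join group means, in red for MYCN-high and blue for MYCN-low cells. SREBF1, SREBF2 and FASN peak at 72 h in MYCN-high cells, INSIG1 is lowest at day 3 and higher again by day 14, and ABCA1 climbs to 20.8 CPM in MYCN-low cells at day 14.

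How closely the members moved together was described by the correlation of each gene's log2 CPM with the mean of the 16 enzymes (of the other 15 for an enzyme), with no test, since the libraries share time and state. Within the 10 MYCN-high libraries FDPS, FDFT1 and IDI1 followed that mean closely (Pearson r = 0.97, 0.96 and 0.95), and INSIG1 did too (0.93). Within the 9 MYCN-low libraries INSIG1 had 0.88. SREBF2 ran against the enzymes in MYCN-high cells and with them in MYCN-low cells, with r of -0.36 and 0.72, as did SREBF1 (-0.54 and 0.75) and FASN (-0.66 and 0.79). HMGCS1 followed the enzymes in MYCN-high cells and not in MYCN-low cells, with 0.86 and -0.10. TM7SF2 had -0.85 and -0.13, and ABCA1 -0.82 and -0.88. Of all tested genes, 15.8% in MYCN-high libraries and 11.7% in MYCN-low libraries had an r above 0.7 with the enzyme mean, and 17.2% and 10.4% had one below -0.7. Over all 19 libraries r was 0.83 for INSIG1, 0.47 for HMGCS1, 0.43 for FASN, 0.08 for SREBF2 and -0.06 for SREBF1. The enzyme mean had an r of 0.64 with the mean of the 10 proliferation markers in MYCN-high libraries and 0.42 in MYCN-low libraries.

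**Figure D5:**
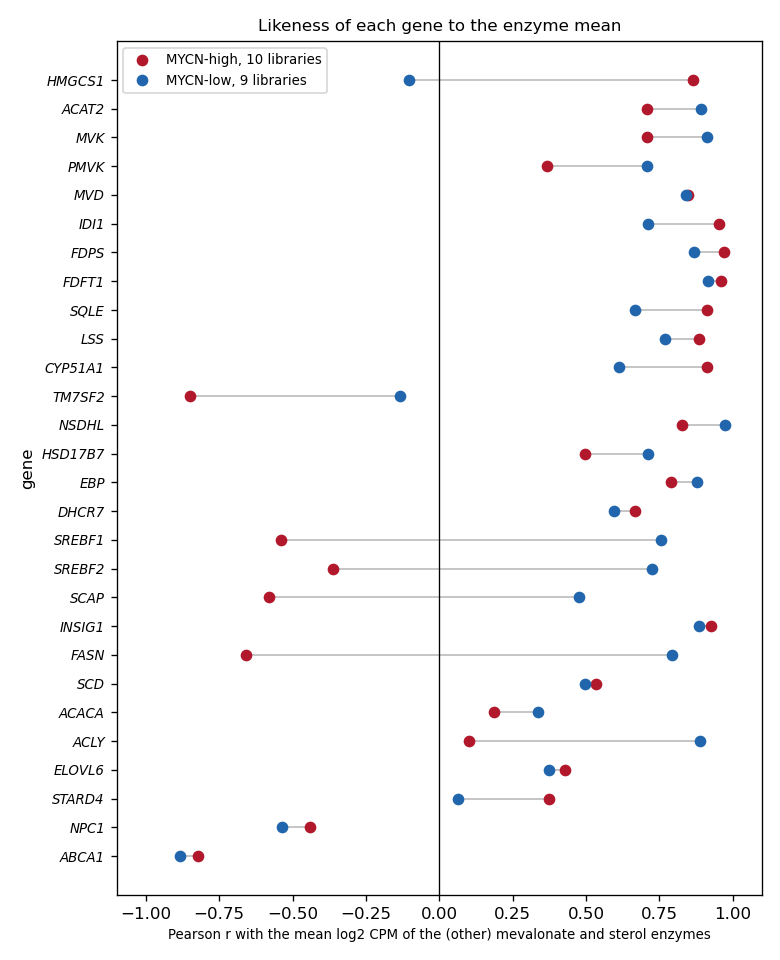
Pearson r of each member with the mean log2 CPM of the mevalonate and sterol enzymes (x axis, from -1 to 1; an enzyme is compared with the other enzymes), over 10 MYCN-high libraries (red) and 9 MYCN-low libraries (blue). A grey line joins the states of a gene: it is short for FDPS, FDFT1 and INSIG1, and crosses 0 for SREBF1, SREBF2, SCAP, FASN and HMGCS1.

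Other genes of these pathways were listed by role, with earlier results of these data known. Those named below were picked by smallest p among the genes of each list that passed, so they are not typical of it. Of 15 further sterol and isoprenoid genes, 5 fell and 1 rose at 72 h in MYCN-high cells and 4 fell in MYCN-low cells, beside the shares of all tested genes given above for 72 h (17.9% fell and 18.3% rose in MYCN-high cells, 12.1% fell in MYCN-low cells). LBR, the nuclear membrane protein that shares the sterol reductase activity of TM7SF2, was at 48.4 and 52.2 CPM at 72 h, against 239 and 227 CPM in untreated MYCN-high cells (-2.21 ± 0.17, adjusted p = 6.46e-07). LBR thus fell in the same libraries in which TM7SF2 rose, and at day 14 it was at 218 and 207 CPM (-0.14 ± 0.16). The coenzyme Q genes PDSS1 and COQ2, which use products of the mevalonate pathway, fell by 1.09 ± 0.21 and 1.61 ± 0.25 at 72 h. Of 13 further SREBP processing genes, 5 rose and 1 fell at 72 h in MYCN-high cells. MBTPS1, the first protease that cuts SREBP, was at 284 and 277 CPM, against 143 and 146 CPM untreated (0.95 ± 0.15, adjusted p = 0.000129). Of 28 tested further fatty acid genes, 5 rose, a share near that of all tested genes, and 8 fell. The elongase gene ELOVL2 (-3.06 ± 0.28) and the desaturase gene FADS1 (-1.05 ± 0.15) fell, and the desaturase gene SCD5 rose (0.95 ± 0.18). Of 21 tested further genes of sterol transport and LXR, 9 rose and 3 fell. Those that rose included LIPA, the lysosomal acid lipase (1.32 ± 0.19), and OSBPL2, an oxysterol binding protein (1.17 ± 0.14).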

How the data were processed

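RNA was sequenced from SHEP TET21N cells in 19 libraries of 10 groups. The deposited counts are raw reads per gene symbol. Per the submitters' processing notes, STAR 2.4.0h1, HTSeq and the build hg19 were used, and the annotation, strand setting and read filters are not given in the sources used here. The labels give the molecule as polyA RNA, while the protocol describes removal of ribosomal RNA before a ScriptSeq library, so how well non-polyadenylated RNA was kept is not settled. The table has 23459 lines, of which 92 ERCC spike-ins were set aside, and 0 value columns of no sample.

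All groups were fitted together in edgeR 4.0.16 (R 4.3.3, limma 3.58.1): filterByExpr kept 14793 of 23367 genes, libraries were scaled by TMM, and glmQLFit and glmQLFTest gave 17 comparisons, with Benjamini-Hochberg adjustment over all tested genes in each comparison, a threshold of 0.05, 9 residual degrees of freedom and a common biological coefficient of variation of 0.204. The model was tested on simulated data. The single MYCN-low library at day 14 has its variance borrowed from the remaining groups. Correlations use log2 CPM with a prior count of 2. Depth limits the precision of genes near 1 CPM or below, and read counts without molecular identifiers are not independent molecules. Alternatives were DESeq2 1.42.0 size factors, its Wald test, no filter, scaling to summed ERCC counts, the replicate letter as a block, and leaving out each library in turn.

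The members and lists were chosen with earlier results of these data known. Every member is eligible to be named, with MYCN, MKI67 and CDKN1A as checks and up to 3 genes of each further list by smallest p. CDKN1A, the p53 target that arrests the cycle, rose at 72 h by 5.59 ± 0.40 in MYCN-high cells and by 4.15 ± 0.37 in MYCN-low cells, and MKI67 fell by 3.95 ± 0.52 and 8.07 ± 0.64. Over 36 pairs of groups, same-letter libraries' deviations had correlations of -0.208 to 0.315, of which 22 were over 0.1. These included all 16 pairs of groups of the same MYCN state (0.101 to 0.315) and 6 of the 20 pairs across states. The labels do not say what the letters B and C share, and with 2 letters a group they were not treated as a pairing. Promoters are RefSeq's (GRCh38.p14) and gene overlaps GENCODE's. Python 3.11.15 with matplotlib 3.10.9 made the plots.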

Additional observations from a re-analysis of the deposited data

Results flagged for a closer look

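The response to doxorubicin differed between the states for 16 pairs of gene and time, by edgeR's test of the difference between the log2 fold changes, MYCN-high minus MYCN-low. At 72 h the differences were -2.09 ± 0.32 for ACAT2 (adjusted p = 0.00237), -0.98 ± 0.28 for EBP (0.0371), 1.25 ± 0.30 for FASN (0.0188), 1.64 ± 0.46 for SREBF1 (0.0349), 1.50 ± 0.42 for SREBF2 (0.035) and 2.95 ± 0.80 for TM7SF2 (0.0305). At day 3 they were -0.95 ± 0.24 for CYP51A1 (0.0262) and -1.20 ± 0.33 for HMGCS1 (0.0403). At day 8 they were 1.41 ± 0.31 for ACAT2 (0.0168), 1.14 ± 0.28 for EBP (0.0264) and 0.71 ± 0.20 for FDPS (0.0454). At day 14 they were 2.40 ± 0.37 for ACAT2 (0.0021), 0.78 ± 0.23 for ACLY (0.0492), 2.13 ± 0.33 for EBP (0.00214), 0.84 ± 0.23 for FDFT1 (0.037) and 1.52 ± 0.23 for FDPS (0.00191). The ACAT2 difference was negative at 72 h and positive at days 8 and 14.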

How the results depend on the processing

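Over the 157 pairs of member and comparison that were called, DESeq2's Wald test kept the call in all 157, DESeq2's size factors lost 11, no filter on low counts lost 12, and none of these reversed a direction. Leaving out 1 library gave 620 fits, of which 395 kept the call, 225 lost it and 0 reversed it, and 75 of the 157 kept it in every such fit. Scaling to ERCC kept 2 calls, lost 111 and reversed 44, all without a call: the spike-in share of a library ran from 0.0116% to 0.537% and was 0.0116% and 0.191% in the MYCN-high pair at 72 h, and the cause of the reversals was not tested. The number of members called was 2 at 72 h in MYCN-high cells and 0 in each other comparison. The reversed log2 values were as follows. For MYCN-high against MYCN-low at 72 h, this was 1.29 (ACAT2). For MYCN-high against MYCN-low at day 3, these were 1.28 (HMGCS1), 1.23 (MVD), 0.78 (INSIG1), 0.83 (STARD4) and 0.69 (NPC1). For MYCN-high against MYCN-low at day 14, this was -0.36 (ACLY). For 72 h against untreated, MYCN-high, these were 1.67 (HMGCS1), 1.30 (IDI1), 1.75 (FDPS), 1.41 (SQLE), 1.42 (CYP51A1), 0.24 (EBP) and 0.95 (INSIG1). For day 3 against untreated, MYCN-high, these were 0.79 (HMGCS1), 0.92 (MVD), 0.14 (IDI1), 0.87 (FDPS), 1.07 (FDFT1), 0.61 (SQLE), 1.05 (LSS), 0.51 (CYP51A1), 1.00 (NSDHL) and 0.22 (EBP). For day 8 against untreated, MYCN-high, these were 0.23 (ACAT2) and 0.42 (NSDHL). For day 3 against untreated, MYCN-low, these were 0.13 (FDFT1) and 0.12 (ACLY). For day 8 against untreated, MYCN-low, these were 0.32 (MVD), 0.36 (FDFT1), 0.26 (SQLE), 0.53 (LSS), 0.30 (NSDHL), 0.27 (DHCR7), 0.42 (SREBF2), 0.34 (FASN) and 0.54 (ACLY). For the difference between the responses at 72 h, these were 0.0132 (ACAT2) and 0.71 (EBP). For the difference between the responses at day 3, these were 0.16 (HMGCS1) and 0.28 (CYP51A1). For the difference between the responses at day 14, these were -0.0465 (FDPS), -0.78 (FDFT1) and -0.75 (ACLY).

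Other settings moved some numbers of members called by more than 1.5 times: at day 8 in MYCN-high cells to 6 (no filter) and 5 (DESeq2's Wald test), for the difference at day 3 to 7 (no filter) and 4 (Wald test), at day 8 to 5 (no filter), and at day 14 to 3 (DESeq2's size factors). With the replicate letter as a block the number for the difference at day 8 was 5 in place of 3, the other numbers stayed within 1.5 times, and 4 of the 157 calls were lost, for MYCN-high against MYCN-low at day 14 those of MVK (adjusted p = 0.0615) and MVD (0.0525), and for MYCN-low cells at day 14 those of NSDHL (0.0578) and DHCR7 (0.0564). Same-letter libraries deviated together within each state, in all 16 pairs of groups, a hint from the data that the labels do not explain.

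Without 1 library the members called were 4 to 15 for MYCN-high against MYCN-low untreated, 5 to 9 at 72 h, 3 to 7 at day 3, 12 to 16 at day 8 and 15 at day 14. Against untreated cells they were 11 to 13, 9 to 12, 0 to 3 and 0 in MYCN-high cells at 72 h, day 3, day 8 and day 14, and 3 to 10, 3 to 10, 7 to 15 and 9 to 12 in MYCN-low cells. For the differences they were 1 to 12, 0 to 10, 0 to 7 and 3 to 10. With 2 libraries a group, and 1 in MYCN-low cells at day 14, modest changes were often not detectable, and TM7SF2 and ABCA1 rest on few reads in untreated MYCN-high cells.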
